A study of Capra hircus with 3 samples.

Results

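miR-183, miR-96 and miR-182 are 3 microRNAs (miRNAs) whose genes lie side by side and are known to be transcribed together. Their reads were counted in small RNA libraries from goat skin at 3 stages of the hair cycle, to ask whether the cluster members moved together. Sequenced tags were taken as members when their first 18 nt were those of a tag that the annotation of the study lists for one of these miRNAs. This gave 3 of 312 miRNA names, 6 of 473 mature arms and 236 of 23249 distinct assigned tags, of which 32 are themselves listed. Skin was taken from the flank of adult Shanbei White cashmere goats of both sexes in anagen (growth), catagen (regression) or telogen (rest), with no treatment. RNA of 10 goats was pooled into 1 library per stage. There is thus no replicate check, a test on the reads compares libraries and not stages, and every interval below covers counting error only.

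A miRNA is cut from a hairpin precursor, whose 5′ and 3′ strands give the 5p and 3p arms, and one arm is usually kept. Bases 2 to 8 of the mature miRNA, called the seed, pair with target mRNAs, so a shift of the 5′ end changes the seed whereas a shift of the 3′ end does not. The miR-183, miR-96 and miR-182 cluster is best known from sensory cells, such as those of the retina, the inner ear and the sensory ganglia, where all of its members are abundant. In the goat gene table of assembly ARS1.2 the order is UBE2H, MIR183, MIR96, MIR182 and NRF1, with 0 genes between the members.

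The tags that carry the results below are shown as DNA letters from the deposited files, 5′ to 3′, with the seed in capitals. They are the most abundant tag of miR-183-5p, its most abundant tag with the other 5′ start, both 3′ ends of miR-96-5p, and the long and shorter forms of miR-182-5p. The last is miR-1271-5p, a miRNA outside the cluster that has the seed of miR-96-5p.
miR-183-5p, commonest start: aTGGCACTggtagaattcactg
miR-183-5p, start 1 base earlier: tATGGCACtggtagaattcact
miR-96-5p, 23 nt: tTTGGCACtagcacatttttgct
miR-96-5p, 22 nt: tTTGGCACtagcacatttttgc
miR-182-5p, 26 nt: tTTGGCAAtggtagaactcacactgg
miR-182-5p, 24 nt: tTTGGCAAtggtagaactcacact
miR-1271-5p, 19 nt: cTTGGCACctagtaagtac

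Counted from 1 at the 5′ end, the seeds of miR-96-5p and miR-182-5p differed by C8A, and 6 of 7 seed bases were the same. The commonest form of miR-183-5p shared 2 of 7 seed bases with either of them at the same position. Its form that starts 1 base earlier shared 6 of 7 with miR-96-5p, from which it differed by A2T. Among the commonest tags of 455 arms with reads, a single arm outside the cluster had the seed of a member, namely miR-1271-5p with that of miR-96-5p. The annotation list was held in part and starts found in more than 1 arm were left out, so other matches can be missed.

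miR-183-5p was the most abundant member in each library and fell relative to miR-182-5p and miR-96-5p from anagen to telogen. The anagen, catagen and telogen libraries held 2528, 1954 and 2725 of its reads, or 158, 108 and 101 TPM (reads per 1000000 clean reads). Values of 3 libraries are given in this order throughout. The anagen value was the highest, and the 95% Poisson intervals of anagen (152 to 164) and catagen (103 to 113) did not overlap. By level, it stood at place 35 of 425 arms with reads, 47 of 439 and 48 of 433. The list was held in part, so these places can miss other arms, and an arm can be counted on part of its tags. The paper lists let-7g and miR-143 among its most abundant miRNAs at each stage. Here let-7g had 2, 8 and 28 reads, and the main arm of miR-143 had 4504, 1001 and 1782. Such arms also enter the shares, medians and places over all arms below. The places leave out 19 starts of 18 nt that more than 1 arm has, among them those of let-7a, let-7f and miR-199a. The left-out starts had 4858356, 4275728 and 5723617 reads in all, against 2345928, 3889768 and 4055458 reads assigned to the arms. A read stands for 1 whole miRNA, so no correction for length was made. Differences between sequences in adapter ligation or amplification were not corrected either. Levels of different miRNAs therefore compare reads and not molecules.

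miR-182-5p varied least between the libraries in TPM. It had 709, 763 and 1290 reads, or 44.3, 42.1 and 47.7 TPM. The Poisson interval of anagen (41.1 to 47.7 TPM) overlapped both others. Those of catagen (39.19 to 45.225 TPM) and telogen (45.179 to 50.428 TPM) met only at their edges. The arm stood at places 67, 71 and 69.

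miR-96-5p, the member between the others in the genome, was the least abundant. It had 122, 161 and 310 reads, or 7.63, 8.89 and 11.5 TPM. The telogen interval (10.2 to 12.8 TPM) lay above that of anagen (6.33 to 9.11 TPM), and both overlapped that of catagen (7.57 to 10.4 TPM). Its place was 135, 140 and 121.

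**Figure D1:**
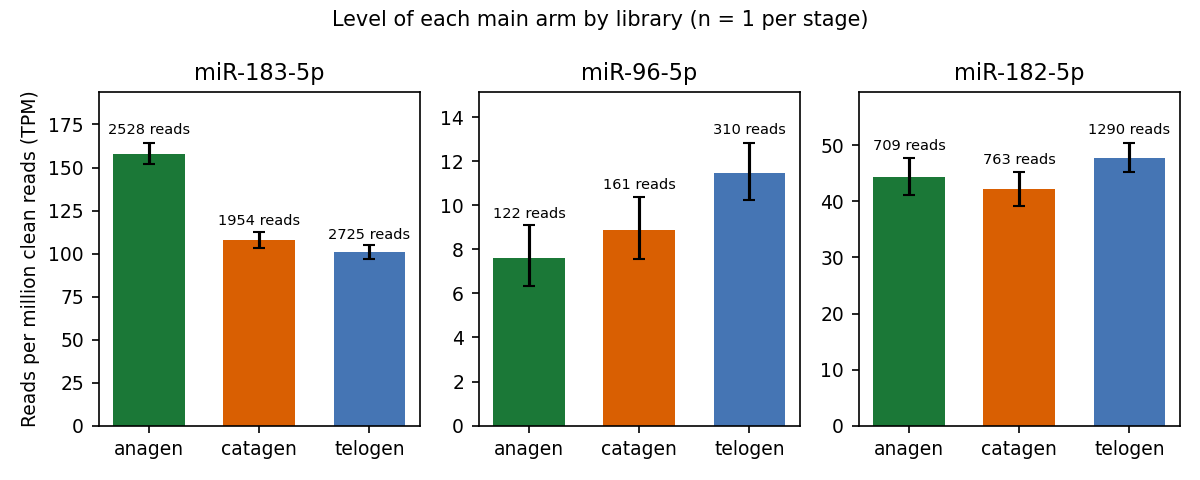
Level of miR-183-5p, miR-96-5p and miR-182-5p in TPM (bars, vertical axis from 0, scaled for each panel) in the anagen, catagen and telogen libraries, with exact 95% Poisson intervals and the reads behind each bar. miR-183-5p was highest in anagen at 158 TPM and miR-96-5p highest in telogen at 11.5 TPM, but the place of anagen for miR-96-5p and the order of catagen and telogen for miR-183-5p changed with the scaling.

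The 3p arms were rare. miR-183-3p had 10, 16 and 23 reads, under 1 TPM in each library, and made up 0.394%, 0.812% and 0.837% of the reads of its precursor. The Wilson intervals of these shares overlapped, from 0.214% to 0.724% in anagen and from 0.558% to 1.25% in telogen. miR-96-3p had 2 reads in catagen, and miR-182-3p had 1 read in anagen and 2 in catagen. Both were at 0 reads in telogen, which allows a level of up to 0.111 TPM (3 reads), and miR-96-3p was also at 0 in anagen, which allows up to 0.188 TPM. No ratio is given for the 3p arms, as none reached 1 TPM.

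Whether the members moved together was tested within the libraries, since the ratio of 2 arms of the same library does not depend on scaling. The 3 main arms together had 3359, 2878 and 4325 reads, or 210.0, 159 and 160.1 TPM. miR-183-5p made up 75.3% of these reads in anagen, 67.9% in catagen and 63.0% in the telogen library. The share of miR-182-5p was 21.1%, 26.5% and 29.8%, and that of miR-96-5p 3.63%, 5.59% and 7.17%. None of the Wilson intervals of the miR-183-5p share overlapped, as they ran from 73.8% to 76.7%, from 66.2% to 69.6% and from 61.6% to 64.4%.

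There were 3.57, 2.56 and 2.11 reads of miR-183-5p per read of miR-182-5p. Between anagen and catagen the log2 ratio of miR-183-5p was 0.48 above that of miR-182-5p (95% interval 0.30 to 0.65, adjusted p = 1.19e-07, Fisher's exact test, two-sided, Benjamini-Hochberg over 9 member-by-library pairs). Between anagen and telogen the difference was 0.76 (0.60 to 0.91, exact test, adjusted p = 1.73e-21), and between catagen and telogen 0.28 (0.12 to 0.43, exact test, adjusted p = 0.000735). These 3 comparisons share libraries and are not independent. Each of them passed the threshold of 0.01, although the last did not with the most abundant tag of each arm alone (0.24, exact test, adjusted p = 0.0782). The anagen library had the highest ratio.

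The change was larger against miR-96-5p. There were 20.7 reads of miR-183-5p per read of miR-96-5p in anagen, 12.1 in catagen and 8.79 in the telogen library. The log2 ratio of anagen over telogen differed by 1.24 between both arms (0.92 to 1.56, exact test, adjusted p = 3.33e-15), which is a 2.36-fold change of their ratio. The differences were 0.77 (0.41 to 1.13, exact test, adjusted p = 3.3e-05) for anagen over catagen and 0.47 (0.17 to 0.76, exact test, adjusted p = 0.00209) for catagen over telogen. The last turned to -0.46 (exact test, adjusted p = 0.0242) with the most abundant tag of each arm alone, which leaves out the 22-nt form of miR-96-5p.

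The ratio of miR-182-5p to miR-96-5p passed the test in 1 of 3 pairs when all tags were counted, and this changed with the tags counted. There were 5.81, 4.74 and 4.16 reads of miR-182-5p per read of miR-96-5p. The difference in log2 ratio was 0.29 (-0.09 to 0.68, exact test, adjusted p = 0.152) for anagen over catagen and 0.19 (-0.12 to 0.50, exact test, adjusted p = 0.243) for catagen over telogen. For anagen over telogen it was 0.48 (0.15 to 0.82, exact test, adjusted p = 0.00553), and this call was lost with listed tags alone (0.41, exact test, adjusted p = 0.0231). With the most abundant tag of each arm alone the differences were 1.02 (exact test, adjusted p = 0.000342) for anagen over catagen and -0.70 (exact test, adjusted p = 0.00257) for catagen over telogen, so that both passed and the second turned. The intervals that hold 0 reach up to 0.68, and do not show that both arms moved alike.

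**Figure D2:**
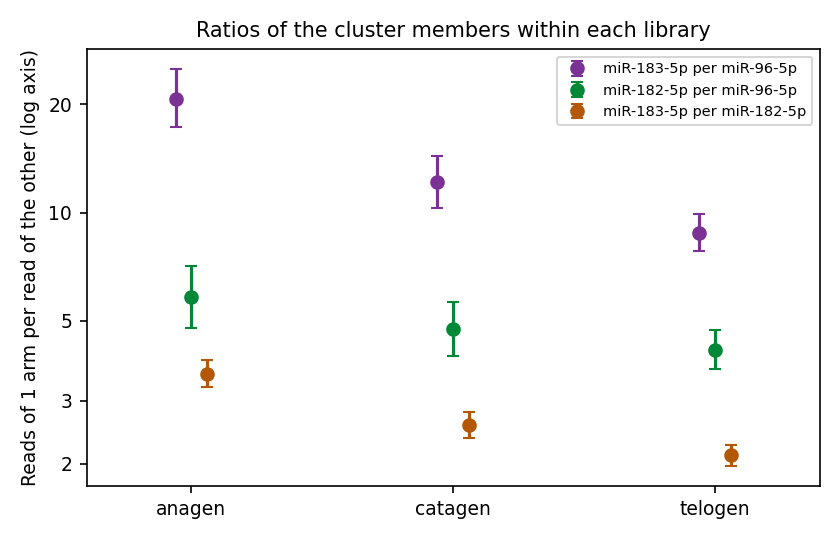
Reads of 1 member per read of another within each library (points, log axis) with 95% intervals of counting error, for miR-183-5p per miR-96-5p, miR-182-5p per miR-96-5p and miR-183-5p per miR-182-5p. miR-183-5p per miR-96-5p was 20.7 in anagen and 8.79 in telogen, and miR-183-5p per miR-182-5p was 3.57 and 2.11.

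The ratios of single members between libraries depend on the scaling, which here is the number of clean reads. miR-183-5p was higher in anagen than in catagen by a log2 ratio of 0.55 (0.46 to 0.64, exact test of Audic and Claverie, adjusted p = 2.24e-36 over 281 arms), a fold of 1.47. Anagen over telogen gave 0.65 (0.57 to 0.73, exact test, adjusted p = 9.58e-58 over 279 arms), a fold of 1.57. Its direction in both comparisons was the same under every scaling tried, with values from 0.55 to 1.34 for anagen over catagen and from 0.33 to 1.51 for anagen over telogen. The ratio of catagen over telogen was 0.10 (0.01 to 0.18, exact test, adjusted p = 0.0428) and turned to -0.42 (exact test, adjusted p = 2.86e-22) when scaled by the reads assigned to arms. That scaling leaves out the shared starts, and miR-1, a muscle miRNA, held 34.4% of its reads in catagen against 2.66% in anagen and 13.3% in telogen. With the shared starts added the value was -0.22 (exact test, adjusted p = 8.6e-07).

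miR-96-5p was lower in anagen than in telogen by a log2 ratio of -0.59 (-0.90 to -0.28, exact test, adjusted p = 0.000224), although this turned to 0.27 when scaled by the reads of a list of epithelial miRNAs. The turn rested on miR-205, as the value was -0.34 (exact test, adjusted p = 0.0456) with that list without miR-205. It also missed the threshold with size factors (-0.33, exact test, adjusted p = 0.0505) and with the most abundant tag alone (-0.52, exact test, adjusted p = 0.0464). Scaled by assigned reads it passed, with and without the shared starts. The value was -0.22 (-0.57 to 0.13, exact test, adjusted p = 0.29) for anagen over catagen, and it was above 0 when scaled by assigned reads, size factors or the epithelial list with miR-205. Of these, only the epithelial list passed the threshold (0.57, exact test, adjusted p = 0.00216). For catagen over telogen the value of miR-96-5p was -0.37 (-0.65 to -0.09, exact test, adjusted p = 0.0185). The latter passed the threshold when scaled by assigned reads (-0.89, exact test, adjusted p = 3.97e-10) or size factors (-0.49, exact test, adjusted p = 0.00123), and turned to 0.51 (exact test, adjusted p = 0.011) with the most abundant tag alone.

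miR-182-5p gave log2 ratios of 0.07 (-0.08 to 0.22, exact test, adjusted p = 0.409) for anagen over catagen and -0.11 (-0.24 to 0.03, exact test, adjusted p = 0.146) for anagen over telogen. The second was above 0 when scaled by size factors (0.15) or by epithelial miRNAs (0.75, and 0.15 without miR-205), and -0.42 when scaled by assigned reads with the shared starts (exact test, adjusted p = 6.39e-10). For catagen over telogen the value was -0.18 (-0.31 to -0.05, exact test, adjusted p = 0.0133). None of these passed the threshold of 0.01 with clean-read scaling. Scaled by assigned reads, anagen over catagen gave 0.62 (exact test, adjusted p = 8.28e-16) and catagen over telogen -0.70 (exact test, adjusted p = 3.57e-26), and size factors gave 0.45 (exact test, adjusted p = 8.38e-09) and -0.30 (exact test, adjusted p = 1.5e-05).

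No main arm of the cluster was past 2-fold in any pair with clean-read scaling. Of all arms tested, 32.4% were past 2-fold between anagen and catagen, 28.3% between anagen and telogen and 14.7% between catagen and telogen. Among arms with at least 100 reads in both libraries, as the members have, the shares were lower, at 18.6%, 13.5% and 8.28%. With the adjusted p alone under 0.01, 1 of 3 members passed for anagen over catagen against 57.3% of all arms, 2 of 3 for anagen over telogen against 61.3%, and 0 of 3 for catagen over telogen against 46.2%. In the last pair the adjusted p values of miR-183-5p, miR-96-5p and miR-182-5p were 0.0428, 0.0185 and 0.0133 (exact test). There miR-183-5p was higher in catagen, whereas miR-96-5p and miR-182-5p were lower. The counts of members that passed changed with the scaling. With assigned reads, 2, 2 and 3 members passed in the same order of pairs (49.8%, 59.1% and 55.9% of all arms). Size factors gave 2, 1 and 2 (50.5%, 57.0% and 44.1%). The epithelial list gave 3, 2 and 1 (56.6%, 65.6% and 46.6%), and 1, 1 and 1 without miR-205 (54.8%, 56.6% and 48.7%). With the shared starts added to assigned reads, 1, 3 and 3 passed (57.3%, 66.3% and 51.3%). Scaled by reads assigned to miRNAs, miR-183-5p was past 2-fold for anagen over catagen at a log2 ratio of 1.10, as were 20.6% of all arms. Scaled by epithelial miRNAs it was so in both pairs with anagen, at 1.34 and 1.51. That scaling shifted all arms by 0.79 and 0.86 in these pairs, and the share of all arms past 2-fold was not counted for it.

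The scaling also moved the split of all arms. Of the arms past 2-fold for anagen over catagen, 16 were higher and 75 lower in anagen (17.6% higher), whereas scaling by assigned reads gave 36 of 58 higher (62.1%) and size factors gave 25 of 57 (43.9%). For anagen over telogen 24.1% of such arms were higher, and 41.1% with size factors. For catagen over telogen the share was 51.2%, and 21.2% with assigned reads. The shift against clean reads was 0.55, 0.03 and -0.52 on the log2 scale for assigned reads and 0.38, 0.26 and -0.12 for size factors, in the same order of pairs. Of the clean reads, 14.7%, 21.5% and 15.0% were assigned to arms, and 45.0%, 45.1% and 36.2% with the shared starts.

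Relative to the other arms, miR-183-5p stood high in anagen. For anagen over catagen, 140 arms had 100 reads or more in both libraries. Their median log2 ratio was -0.34 and that of the 3 members 0.07, and 10 arms had a higher value than miR-183-5p, 34 than miR-182-5p and 57 than miR-96-5p. For anagen over telogen the median was -0.17 over 141 arms and -0.11 over the members, and 13, 61 and 107 arms were above miR-183-5p, miR-182-5p and miR-96-5p. For catagen over telogen the median was 0.13 over 157 arms and -0.18 over the members, with 84, 116 and 138 arms above them. These places do not change with a scaling that is the same for all arms of a library.

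**Figure D3:**
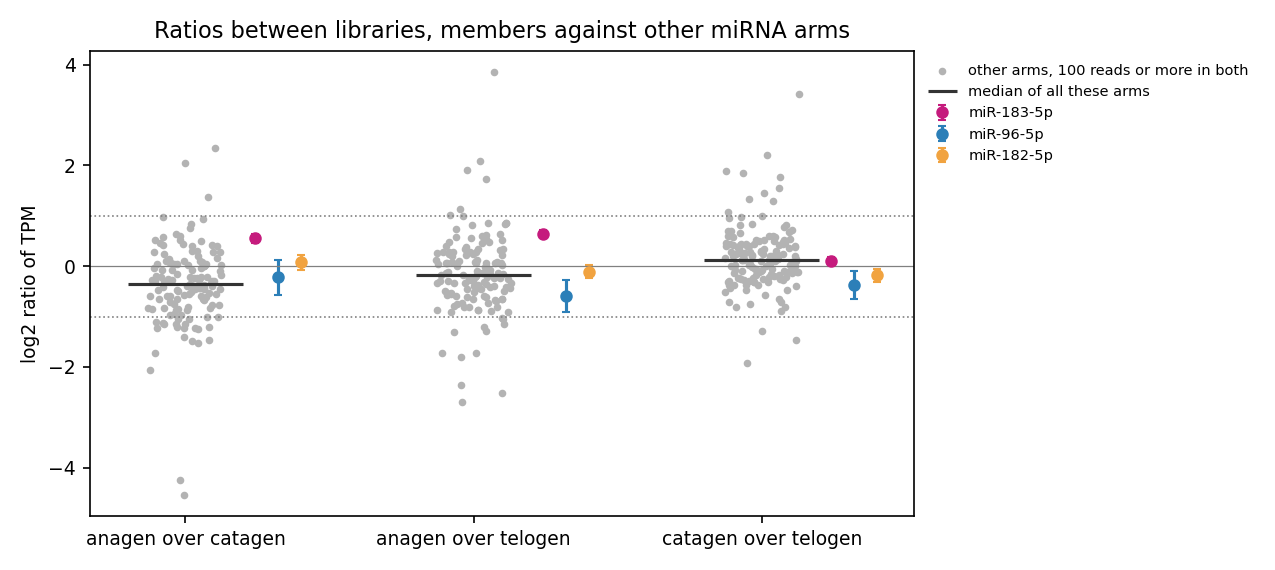
Log2 ratio of TPM between libraries for the cluster members (coloured points, bars of 95% counting error) and the other arms with at least 100 reads in both libraries (grey points, line at their median with members), with dotted lines at 2-fold. miR-183-5p was at 0.55 and 0.65 in the pairs with anagen, against medians of -0.34 and -0.17, whereas miR-96-5p was at -0.59 for anagen over telogen, a sign that turned when scaled by epithelial miRNAs with miR-205.

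With clean-read scaling the members had 3 different orders of the libraries. With assigned reads, size factors or the epithelial list they had 2, and with the added scalings (assigned reads with shared starts, and the epithelial list without miR-205) again 3. Of 139 arms with at least 100 reads in each library, 19 had the order of miR-183-5p (anagen, catagen, telogen from high to low), 14 that of miR-182-5p (telogen, anagen, catagen) and 25 that of miR-96-5p (telogen, catagen, anagen). The most frequent order, with 45 arms, was catagen, telogen, anagen, and no member had it. Neighbouring libraries did not all pass the test, so the order is a description.

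The profile of miR-183-5p, as log2 TPM centred over the 3 libraries, was nearest to that of let-7i, which had 3953, 2755 and 2591 TPM (Euclidean distance 0.028). The second listed arm of miR-99b (0.043) and miR-221 (0.20) followed. miR-182-5p came at place 36 and miR-96-5p at place 73 among the other arms. The nearest profiles to miR-96-5p were those of miR-2904 (0.0024), miR-193b (0.046) and miR-877 (0.049), with miR-182-5p at place 25 and miR-183-5p at place 111. Those nearest to miR-182-5p were miR-382 (0.040), miR-411a (0.042) and miR-423 (0.051), with miR-96-5p at place 32 and miR-183-5p at place 71. These distances rest on 3 values per arm and are a description.

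The 5′ end of miR-183-5p was split between 2 starts in each library. The start with A made up 89.8%, 89.7% and 88.9% of its reads, and the start 1 base earlier 10.1%, 10.3% and 11.1%. The log2 odds of the commonest start differed by 0.02 (-0.26 to 0.31) between anagen and catagen, by 0.14 (-0.11 to 0.41) between anagen and telogen and by 0.12 (-0.16 to 0.40) between catagen and telogen. None passed Fisher's exact test, with adjusted p values of 0.881, 0.584 and 0.584, and the intervals leave room for a difference of up to 0.41. Over distinct tags in place of reads, the commonest start made up 42.2%, 65.7% and 65.4%, with log2 odds of -1.35 and -1.33 for the pairs with anagen (exact test, adjusted p = 0.0545 for both). The seed ATGGCAC of the earlier start was thus carried by 256, 201 and 302 reads, more than miR-96-5p had in anagen and catagen.

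The rule counts only the starts of listed tags. Among these, miR-96-5p had 1 start in all 122, 161 and 310 reads. In miR-182-5p the start given above made up 99.6%, 99.7% and 100% of reads, with 3 reads in anagen and 2 in catagen starting 1 base later. Other starts within the joined listed sequences, which the rule for members leaves out, had 2 reads of miR-96-5p and 3 of miR-182-5p over all libraries, and 0 of miR-183-5p. A start before the joined listed sequence could not be counted, so these shares do not show that such starts are absent.

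The 3′ end of miR-96-5p differed between catagen and the other libraries. The 23-nt form had 54 of 108 reads of 22 or 23 nt in anagen (50%, Wilson interval 40.7% to 59.3%), 122 of 155 in catagen (78.7%, 71.6% to 84.4%) and 129 of 285 in telogen (45.3%, 39.6% to 51.1%). The catagen share was above the other 2 intervals, which overlapped. This measure was chosen after the values were seen and was not tested. The share of reads that would have to change length to match the libraries was 34.4% between catagen and telogen, and 6 of 139 arms had a larger one (median 8.43%). Between anagen and catagen it was 31.9%, which 20 arms exceeded (median 12.7%). Mean tag length was higher in catagen than in anagen in 118 of these 139 arms, by a median of 0.20 nt, and 48 of them had a larger shift than miR-96-5p. Between catagen and telogen, 78 of the 139 arms were longer in catagen, with a median of 0.02 nt, and 16 had a larger shift than miR-96-5p.

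**Figure D4:**
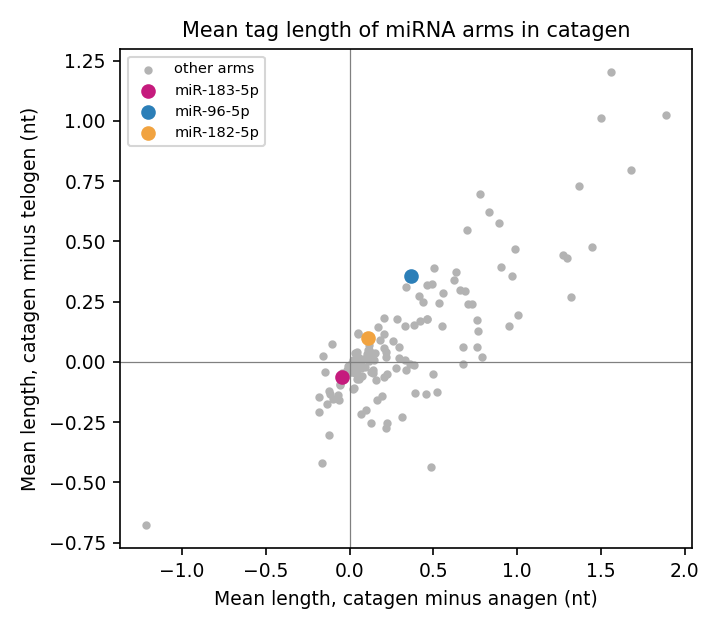
Mean tag length in catagen minus anagen (horizontal axis, nt) against catagen minus telogen (vertical axis, nt) for 139 miRNA arms with at least 100 reads in each library, with the cluster members coloured. miR-96-5p was 0.365 and 0.358 nt longer, miR-182-5p 0.11 and 0.10 nt longer, and miR-183-5p -0.05 and -0.06 nt. Both axes share the catagen library, so points tend to lie along a diagonal.

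miR-182-5p was unusually long. Its mean length was 25.3, 25.4 and 25.3 nt, and 0 of 139 arms had a longer mean in any library, where the medians were 21.9, 22.2 and 22.1 nt. The 26-nt form was the commonest with 30.6%, 32.2% and 32.7% of reads, followed by 24 nt with 19.2% and 19.8% in anagen and telogen and by 27 nt with 19.9% in catagen. Tags of 25 nt or longer made up 63.2%, 66.8% and 64.8%, with overlapping intervals. By comparison, 22 nt was the commonest length of miR-183-5p, with 64.6%, 63.1% and 64.5%.

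Short tags were rare in all members. Tags under 21 nt made up 1.94%, 1.28% and 1.10% of miR-183-5p, 0.99%, 0.92% and 0.62% of miR-182-5p, and 0%, 0% and 0.32% of miR-96-5p. The medians over 139 arms were 7.94%, 2.38% and 3.53%. Of the tags of miR-183-5p, 95.5%, 96.3% and 96% of reads ended within the joined listed sequence, and 2.14%, 2.56% and 2.50% had only A added. Of miR-182-5p, 83.4%, 85.5% and 86.1% ended within it, 5.08%, 6.42% and 4.50% had only A added and 4.23%, 4.19% and 4.96% only T.

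**Figure D5:**
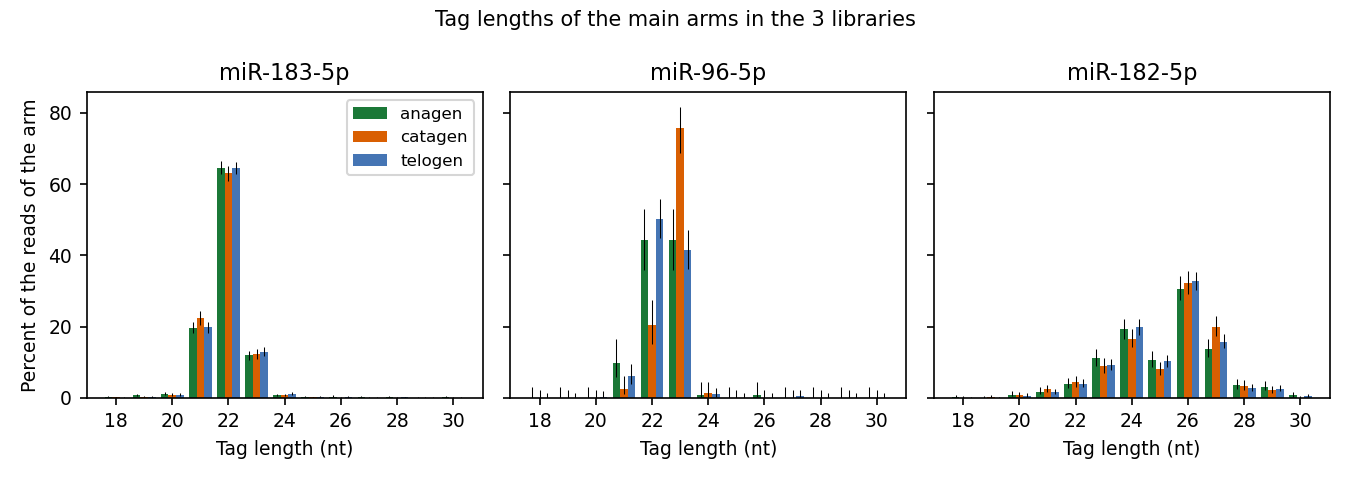
Percent of the reads of each main arm (vertical axis) by tag length in nt (horizontal axis) in the 3 libraries, with 95% Wilson intervals. miR-96-5p had 75.8% of reads at 23 nt in catagen against 44.3% in anagen and 41.6% in telogen, whereas miR-182-5p was commonest at 26 nt in each library.

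miR-1271-5p, which has the seed of miR-96-5p, had 133, 36 and 86 reads, or 8.31, 1.99 and 3.18 TPM. The log2 ratio of anagen over catagen was 2.06 (exact test, adjusted p = 1.18e-16). However, 97.7%, 58.3% and 84.9% of its reads were under 21 nt, and tags of 21 nt or longer had 3, 15 and 13 reads, or 0.188, 0.828 and 0.481 TPM. The library with the highest level was anagen with all tags and catagen with the longer tags. In the same libraries miR-96-5p had 122, 161 and 309 such longer reads.

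Skin holds many cell types, and in pooled tissue fewer cells of a type and less RNA per cell cannot be told apart. Of 7 epithelial miRNAs 6 were listed, and their sum was 1092, 1886 and 1979 TPM, mostly miR-205. miR-183-5p had 145, 57.2 and 51 reads per 1000 of these, miR-182-5p 40.6, 22.3 and 24.1, and miR-96-5p 6.99, 4.71 and 5.80. On this scale all 3 members were highest in anagen. However, miR-205 made up 92.0%, 95.1% and 94.8% of the list, and the other listed members summed to 86.8, 92.8 and 103 TPM. Most of this sum was miR-200b (33, 41 and 40 TPM) and miR-429 (42, 41 and 52 TPM). In the reads counted, these members did not move alike, as miR-141 had 10, 9.6 and 10 TPM and miR-200a 1.4, 1.2 and 0.63. miR-200c had only 2, 5 and 18 reads. The annotation list was held in part, so these miRNAs can be counted on part of their tags. Low counts here do not show low levels, and whether the epithelial miRNAs truly differ was not tested. Per 1000 reads of the list without miR-205, miR-96-5p had 87.8, 95.8 and 111 reads and was highest in telogen. On that scale miR-183-5p had 1820, 1162 and 975 and miR-182-5p 510, 454 and 461. The part of the cell types in the results was not tested.

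Lists for other cell types also differed between the libraries. The sum of 4 muscle miRNAs was 4117, 78790 and 21410 TPM, that of 3 red blood cell miRNAs 1312, 2137 and 878, and that of 3 of 4 leukocyte miRNAs 131, 183 and 223. Of the melanocyte miRNAs, miR-211 had 14.2, 19.4 and 7.85 TPM and miR-204 had 14.6, 19.5 and 26.5 TPM. In the list of neurons, the cell type nearest to those the cluster is known for, miR-9 and miR-7 had 4.0, 7.90 and 10.3 TPM together. No marker with a listed tag was at 0, and miR-203, miR-150 and miR-124 were not analysed here.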

How the data were processed

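Small RNA libraries of goat skin, 1 per stage, were sequenced by Solexa. Before deposit, the authors filtered the reads on quality, adapters, insert and a minimum length of 18 nt, and collapsed identical clean reads. The deposited tag files give the count of reads of each tag, not normalised, with its length and sequence. The filtering record deposited by the authors gives counts and the percent of high-quality reads in each class. No alignment enters these values. The anagen, catagen and telogen libraries had 15997828, 18111912 and 27016012 clean reads, in which 3 reads correspond to 0.188, 0.166 and 0.111 TPM. PCR reads without molecular identifiers are not independent molecules.

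The annotation list of the authors was held in part (1999 lines per library, 2697 distinct tags), so an arm can be counted on part of its tags. Listed tags that overlapped by at least 14 nt were joined into arms. A tag was assigned to an arm when its first 18 nt were those of a listed tag, and 19 of 865 such starts found in more than 1 arm were left out. Counts were scaled by clean reads, a pair was tested over arms with at least 1 TPM in either library, and 0 was set to 0.01 TPM. Libraries were compared with the exact test of Audic and Claverie, two-sided and adjusted over all arms tested, with Clopper-Pearson intervals, and pairs of members and 5′ starts with Fisher's exact test, at a threshold of 0.01. Shares have Wilson intervals at 95%. With 1 library per stage no quasi-likelihood fit was possible. The assignment and the tests on reads were checked on simulated data (Python 3.11.15, SciPy 1.17.1, NumPy 2.4.6, pandas 2.3.3). Simulated tags were built from the listed tags, and simulated reads held counting error only. The check therefore covers neither the list held in part nor differences between pools of goats.

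The members, lists and tests were chosen with earlier results of these data known. Named were all arms of the members, arms with the same seed, the 3 arms with the nearest profile, and the 5 most abundant tags of each main arm, of which those the results turn on are printed. The alternatives were 2 other scalings, listed tags only, tags exactly within the joined listed tags, the most abundant tag, tags of 21 nt or longer, the commonest start, distinct tags, Fisher's exact test, and other minimums. Scaling by epithelial miRNAs, with and without miR-205, scaling by assigned reads with the shared starts, and counting tags with 1 mismatch were added after seeing the data.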

Additional observations from a re-analysis of the deposited data

Results flagged for a closer look

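Tags with 1 mismatch in the first 18 nt lie outside the rule for members and were read above the limit that a count of 0 allows. The anagen, catagen and telogen libraries held 51, 15 and 47 such reads of miR-183-5p, or 2.02%, 0.768% and 1.72% of the reads of the arm, spread over 70 tags. miR-182-5p had 42, 20 and 42, or 5.92%, 2.62% and 3.26%, in 40 tags.

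A single substitution made up much of this in miR-182-5p. C17T, counted from 1 at the 5′ end, was read 26, 12 and 29 times, 67 reads in all. Its most abundant tag, with the changed base in capitals, had 20, 7 and 16 reads.
miR-182-5p with C17T, 24 nt: tttggcaatggtagaaTtcacact
By length, C17T was found in 4 reads of 22 nt, 17 of 23 nt and 43 of 24 nt, where it was 7.66% (Wilson interval 5.74% to 10.2%) of the reads of that length. It was found in 2 reads of 25 nt beside 268 without it. At 26 nt it was at 0 beside 885 reads and at 27 nt at 0 beside 452, with upper bounds of 0.432% and 0.843%. The substitution was thus read in the shorter forms and not detected in the commonest form of the arm. Its position and the lengths were chosen after the values were seen, and the cause was not tested.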

How the results depend on the processing

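Of 99 log2 ratios of the members under the alternatives, 70 kept direction and side of the threshold, as did 47 of 54 differences between members, 7 of 9 odds of the 5′ starts, and 18 of 18 shares of the 3p arm. The differences of miR-183-5p from miR-182-5p and from miR-96-5p for anagen over catagen and for anagen over telogen were among those that did. Causes of the changes below were not tested, but a scaling shifts all arms of a library alike.

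Scaled by assigned reads, the ratio of anagen over catagen was 0.33 for miR-96-5p and 0.62 for miR-182-5p, and that of catagen over telogen was -0.42 for miR-183-5p, -0.89 for miR-96-5p and -0.70 for miR-182-5p. With size factors, anagen over catagen was 0.16 for miR-96-5p and 0.45 for miR-182-5p, anagen over telogen -0.33 and 0.15, and catagen over telogen -0.49 and -0.30, with -0.022 for miR-183-5p. Scaled by epithelial miRNAs, whose shift was 0.79, 0.86 and 0.07, anagen over catagen was 0.57 for miR-96-5p and 0.86 for miR-182-5p, anagen over telogen 0.27 and 0.75, and catagen over telogen 0.17 for miR-183-5p. Without miR-205 in that list, anagen over telogen was -0.34 for miR-96-5p and 0.15 for miR-182-5p, and catagen over telogen 0.25 for miR-183-5p. Scaled by assigned reads with the shared starts, whose shift was 0.002, -0.32 and -0.32, anagen over telogen was -0.42 for miR-182-5p, and catagen over telogen -0.22 for miR-183-5p, -0.69 for miR-96-5p and -0.50 for miR-182-5p. With 1 mismatch also counted, catagen over telogen was -0.19 for miR-182-5p.

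With the most abundant tag alone, which for miR-96-5p is the 23-nt form, anagen over catagen was -1.02 for miR-96-5p (exact test, adjusted p = 2.28e-05) and -0.0019 for miR-182-5p, anagen over telogen -0.52 for miR-96-5p, and catagen over telogen 0.51 for miR-96-5p. The differences were then 1.02 and 0.32 for miR-182-5p minus miR-96-5p in the pairs with anagen and -0.70 for catagen over telogen, where miR-183-5p differed by 0.24 (exact test, adjusted p = 0.0782) from miR-182-5p and by -0.46 from miR-96-5p. For anagen over telogen, miR-182-5p minus miR-96-5p was 0.41 (exact test, adjusted p = 0.0231) with listed tags and 0.42 (exact test, adjusted p = 0.0199) with tags exactly within the joined sequence.

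Counted over distinct tags, the log2 odds of the commonest start of miR-183-5p were -1.35 for anagen over catagen and -1.33 for anagen over telogen (both exact test, adjusted p = 0.0545), and 7 of 9 shares of tags under 21 nt moved. The number of arms past 2-fold was 91, 79 and 41, and became 58 with assigned reads and 57 with size factors for anagen over catagen, 183, 166 and 124 with no minimum, and 26, 19 and 13 with at least 100 reads in both libraries.

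No paired analysis was possible because each stage has 1 library, so no library was left out in turn either. At this depth the 3p arms and the longer tags of miR-1271-5p were too few for a ratio.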
